A study of Mus musculus with 3 samples.

Results

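The miRNAs numbered miR-297, miR-466, miR-467 and miR-669 are mouse repeat-sequence families whose hairpins are mostly copies within 1 intron of the gene Sfmbt2. Their rows were taken by name only, as every row of the deposited table whose hairpin number is 1 of those 4, with any letter suffix and either arm. The families, and the lists set beside them, were chosen with earlier results of these data known. The rule gave 80 of the 1251 mature miRNAs listed: 6 rows of miR-297, 31 of miR-466, 13 of miR-467 and 30 of miR-669. Small RNA was sequenced from visceral (epididymal) white fat of 3 C57BL/6J mice, numbered 1, 3 and 9, with no control diet among the samples analysed here. All 3 had eaten a high-fat diet supplemented with EPA (eicosapentaenoic acid, a fatty acid of fish oil). They began it at 5 to 6 weeks of age, stayed on it for 11 weeks and were fasted for 4 h before death. Fat supplied 45% of the energy of that diet, protein 20% and carbohydrate 35%, and its EPA content is given as 6.75%. No value here measures an effect of EPA.

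Sfmbt2 encodes a Polycomb-group protein and is imprinted, with expression from the paternal copy in the early embryo and the placenta. Its miRNA cluster is found in rodents, has expanded by duplication, and is best known from embryonic stem cells and trophoblast. In other settings miR-467 has been described as a glucose-induced repressor of thrombospondin-1, an anti-angiogenic matrix protein, and miR-466l as a regulator of the anti-inflammatory cytokine Il10. Which members of the families can be seen in fat, and at what level, is the question put to the table here.

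Runs of alternating U and G or of alternating A and C occur in the following mature strands of these families (RefSeq, build GRCm38.p6). These strands are given to show such repeats, and none belongs to a row seen above the floor. Capitals mark the seed, bases 2 to 8 from the 5′ end, which selects target messenger RNAs.
miR-466i-3p: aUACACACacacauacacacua
miR-467f: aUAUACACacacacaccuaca
miR-466q: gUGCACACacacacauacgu
miR-466k: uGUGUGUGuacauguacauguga
miR-669n: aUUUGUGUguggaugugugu
miR-467h: aUAAGUGUgugcauguauaugu
These lie at chr13:17747552-17747573, chr11:69635419-69635439, chr3:28419988-28420007, chr3:85467396-85467418, chr3:115979905-115979924 and chr9:115381898-115381919, on the plus strand except miR-467f. A RefSeq mature sequence was matched to 8 of the 80 rows, these and those of miR-466j and miR-467g, and all 8 come from hairpins outside Sfmbt2. The 8 had 8 different seeds. Among the 1001 rows of the table with a matched sequence, miR-668-5p was the only other one to share any of these seeds, that of miR-467h, and it was at the floor in every mouse.

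The families were almost entirely unseen in this fat. Values are deposited log2 normalized counts, and 3.32, which is log2 of 10, is the lowest value in the table and is called the floor. None of the 80 rows stood above the floor in all 3 mice, where 22.9% of all rows did, and none did in 2 mice, where 25.5% of all rows stood above it in at least 2. In at least 1 mouse 3 of the 80 rows (3.75%) were above the floor, against 29.0% of all rows. The 3 were miR-467a-3p, miR-467d-3p and miR-669c-5p, each in a single mouse. A level 10 or more normalized counts higher than the floor was reached in at least 1 mouse by 2 of the 80 rows, both of miR-467, against 23.7% of all rows. By mouse the count was 1 row in mouse 1, 0 in mouse 3 and 2 in mouse 9. The shares of all rows above the floor were 25.3%, 25.3% and 26.9% in the same order. The share of rows seen in exactly 1 mouse, 3.75% of the members, was close to that of the whole table, 3.52%. Over the whole table, 9 such rows were seen in mouse 1 only, 7 in mouse 3 only and 28 in mouse 9 only. The other 77 rows held 3.32 in mice 1, 3 and 9 alike. The counts behind each value are not given, so a row at the floor was not seen here, which does not show absence.

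**Figure D1:**
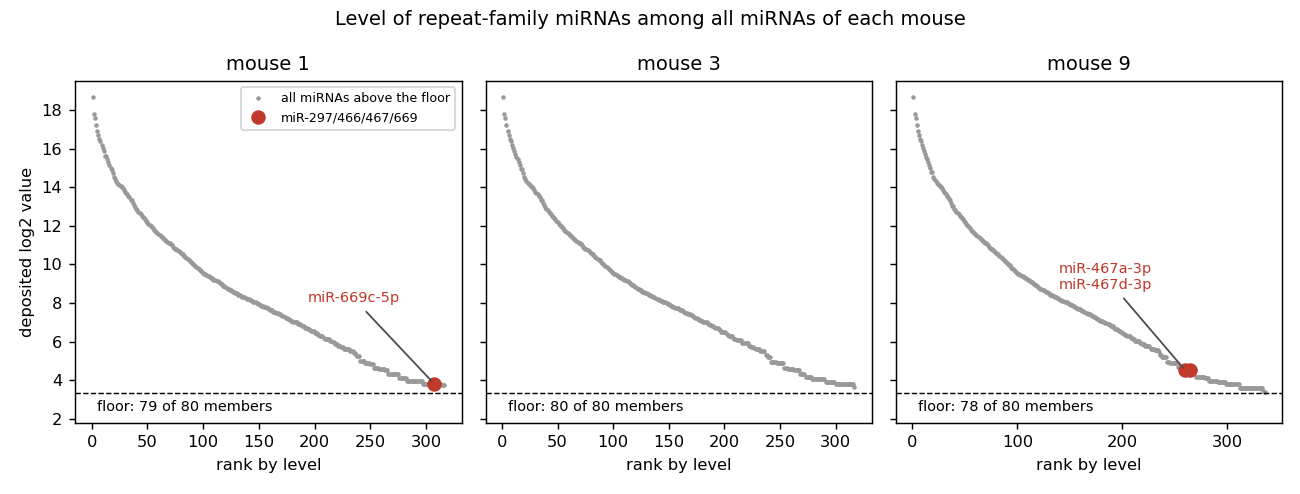
Deposited log2 value (vertical axis) against rank by level (horizontal axis) for every miRNA above the floor in mice 1, 3 and 9, as grey points, with members of the 4 families in red and the floor as a dashed line. The red points lie in the tail of the curves, at 3.83 in mouse 1 and 4.52 in mouse 9, and mouse 3 has none.

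miR-467a-3p held 3.32 in mouse 1, 3.32 in mouse 3 and 4.52 in mouse 9, a mean of 3.72 ± 0.69 log2 units (SD, n = 3). miR-467d-3p held the same 3 values. Only mouse 9 was above the floor for either row, by 13.0 normalized counts. Of the 336 rows above the floor in mouse 9, 259 stood higher than these and 67 lower. The highest row of that mouse was 14.15 log2 units above them.

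miR-669c-5p held 3.83 in mouse 1, 3.32 in mouse 3 and 3.32 in mouse 9, a mean of 3.49 ± 0.29 (SD, n = 3). Its value in mouse 1 was 4.18 normalized counts above the floor, the third-lowest level above the floor in that mouse. Of 316 rows above the floor there, 296 stood higher and 3 lower. The animals with a signal therefore differed between miR-669c-5p and the pair of miR-467 rows, and no mouse had all 3 above the floor. Rows seen in at least 1 mouse with a mean within 1 log2 unit of these members (108 rows for miR-467a-3p and miR-467d-3p, and 97 for miR-669c-5p) had a median SD of 0.29. The SD of miR-669c-5p was equal to it to 2 decimals and those of the miR-467 rows were above it. Each member was itself counted among these rows. With 1 mouse above the floor, the SD of a member follows from that 1 value alone, so this comparison says little of spread between mice.

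The equal values of miR-467a-3p and miR-467d-3p do not tell whether the same reads were counted under both names. In mouse 9, 10 rows shared the value 4.52, among them miR-10b-3p, miR-433-3p and miR-874-3p, which belong to other families. In mouse 1, 17 rows shared the value of miR-669c-5p. Equal low values were thus also held by rows of unrelated names.

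As a share of the summed normalized values of a mouse, the 80 rows together held 1.74 parts in 1000000 (ppm) in mouse 1, 0 in mouse 3 and 10.8 ppm in mouse 9, a mean of 4.17 ± 5.78 (SD, n = 3). The spread between mice exceeded the mean. These are shares of normalized values, not of reads. Without mouse 9 the mean was 0.868 ppm and the number of rows seen in at least 1 mouse was 1 instead of 3. Without mouse 1 that number was 2. Both miR-467 rows gave the whole of the share in mouse 9, and miR-669c-5p the whole of it in mouse 1.

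The 4 families compared as follows. All 6 rows of miR-297 (miR-297a, b and c) and all 31 rows of miR-466 (miR-466a to miR-466q) stood at the floor in the 3 mice. Of 13 miR-467 rows, 2 of the 5 3p arms were above it in mouse 9, and the 5 5p arms and the 3 rows with no arm in their name (miR-467f, miR-467g and miR-467h) were at it. Of 30 miR-669 rows, 1 of the 12 5p arms was above the floor in mouse 1, and the 14 3p arms and 4 rows without an arm were at it. Which family had a signal was thus set by 1 mouse each, and no order of the families holds across the mice. miR-669a, described as restraining myogenic differentiation in heart and muscle progenitors, stood at the floor in its 3 rows. So did miR-467b-3p, described as a repressor of lipoprotein lipase, the enzyme that releases fatty acids from circulating triglyceride.

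For each of the 3 rows above the floor, the partner strand of the hairpin (miR-467a-5p, miR-467d-5p and miR-669c-3p) stood at the floor in every mouse. A test of 5p against 3p could not be made at the level required elsewhere in the table. Of 425 hairpins with both arms listed, 129 had a larger arm that averaged 100 or more normalized counts, and 125 of those (96.9%) differed between arms by limma's moderated test. None of the 33 family hairpins with both arms listed reached that level. The log2 ratio of 5p to 3p was -1.20 in mouse 9 for miR-467a and for miR-467d and 0.50 in mouse 1 for miR-669c, and 0 in the other mice. Each of these ratios exists through 1 mouse, so no p-value is given for them. Only the titles and the stated number of samples in a group speak for separate animals. The SDs given throughout and the p-values of the arm test thus reflect the spread among 3 samples, and that spread may be technical.

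The families were also described by the position and number of their hairpins, which the choice by name did not use. On GRCm38 (mm10), GENCODE M21 lists 81 hairpins of the 4 families, of which 71 lie inside Sfmbt2 (chromosome 2, 10370510 to 10595253, plus strand). All 71 are on the strand of Sfmbt2 and in 1 intron, number 10 of the transcript used for numbering (10461473 to 10523944), and none overlaps an exon of any Sfmbt2 transcript. They span 51.6 kb, from 10466663 to 10518279, with a median of 298.5 bases between neighbouring starts. The intron holds 5 hairpins of miR-297, 23 of miR-466, 14 of miR-467 and 29 of miR-669. Another 48 miRNA genes annotated inside Sfmbt2 all have Gm symbols, and 0 rows of the table carry such a name.

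**Figure D2:**
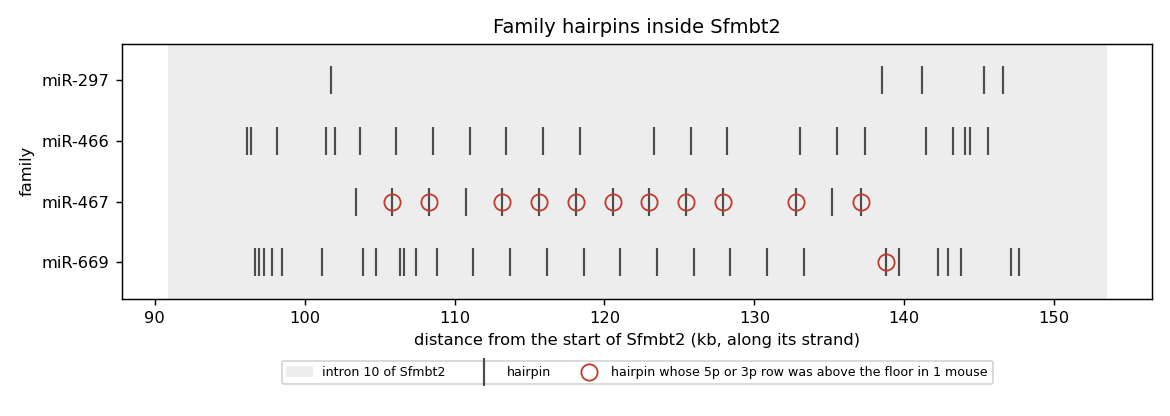
Position of the 71 family hairpins along Sfmbt2, in kb from the start of the gene along its strand (horizontal axis), by family (vertical axis), with intron 10 shaded. Vertical ticks are hairpins and red circles mark the 12 whose 5p or 3p row stood above the floor in 1 mouse, of which 10 are copies of miR-467a that share 1 row per arm.

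The 3 rows above the floor all come from hairpins inside Sfmbt2, 3 of the 66 rows whose hairpins lie only there. The 9 rows with hairpins only elsewhere, and the 5 rows of miR-297a and miR-466f with hairpins in both places, stood at the floor. With 3.75% of all members seen in at least 1 mouse, so few rows cannot show a difference by position. No test of position was made. Mir467d covers 10507630 to 10507714 and Mir669c covers 10509296 to 10509404, with 1581 bases and the hairpins Mir466 and Mir297c between them. The rows of those hairpins were at the floor. miR-467a is encoded by 10 hairpins, of which Mir467a-1 (10476346 to 10476418) is the first and Mir467a-10 (10503273 to 10503355) the last. By number of copies, 1 of the 3 names with 8 or more hairpins was seen: miR-467a, and not miR-669a with 12 hairpins or miR-466b with 8. Of the 41 names with 1 to 4 hairpins 2 were seen, miR-467d and miR-669c, which have 1 each. No test was made of this difference. The 10 hairpins outside Sfmbt2 lie on chromosomes 3, 5, 7, 9, 10, 11 and 13. Of these, 6 are in introns of other genes, such as Mir466q in Tnik on its strand and Mir467f opposite to Fxr2, and 4 overlap no other gene.

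A few miRNAs outside the 4 families have similar repeats. Of 9 such rows, 2 (22.2%) were above the floor in at least 1 mouse, against 29.0% of all rows. The motifs UGUGUGU and ACACACA, each the reverse complement of the other, were searched in the mature strands as written. They occur in 16 of the 1001 matched rows (1.60%), 7 of them family members and 9 not. The 7 members were at the floor in every mouse, as were 7 of the 9 others. For the members this follows from the matching, as 72 of the 80 rows had no matched sequence. The 3 members seen above the floor were among those 72, so the search could not include them. The exceptions were miR-574-5p and miR-672-5p, shown beside miR-1187, a repeat miRNA at the floor, with seeds in capitals.
miR-574-5p: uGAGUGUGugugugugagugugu
miR-672-5p: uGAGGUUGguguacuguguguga
miR-1187: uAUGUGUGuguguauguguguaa
They lie at chr5:64970328-64970350 (plus strand), chrX:104116228-104116250 (minus strand) and chr5:82798964-82798986 (minus strand). miR-574-5p held 7.41 in mouse 1, 6.49 in mouse 3 and 7.85 in mouse 9, a mean of 7.25 ± 0.69 (SD, n = 3), with its longest run of alternating U and G at 13 bases. That run was longer than in any of the 8 matched members, which had runs of 7 to 12 bases of U and G or of A and C with a median of 9, where the other matched rows had a median of 3. miR-672-5p held 3.32, 3.32 and 3.83. Of the 16 rows with a motif, only miR-574-5p was thus above the floor in every mouse. The way reads matching many places were counted is not given in the sources used here, and its part in the floor values of the families was not tested.

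The families were set beside other lists of the table by counts alone, with no test of the differences. The imprinted Dlk1-Dio3 region, another large cluster with expression from 1 parental copy, had 42 of 103 rows above the floor in at least 1 mouse (40.8%) and 25 in all 3 (24.3%). miRNAs numbered 3000 and above, mostly of late annotation, had 22 of 303 (7.26%) and 13 of 303 (4.29%). The 1171 rows outside the 4 families had 360 (30.7%) and 287 (24.5%). The median over rows was at the floor of 3.32 for each of these lists, as it was for the 80 members, so the lists differ in their upper parts. Their highest single values were 13.94 for Dlk1-Dio3 and 15.63 for the numbers of 3000 and above, against 4.52 for the families.

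**Figure D3:**
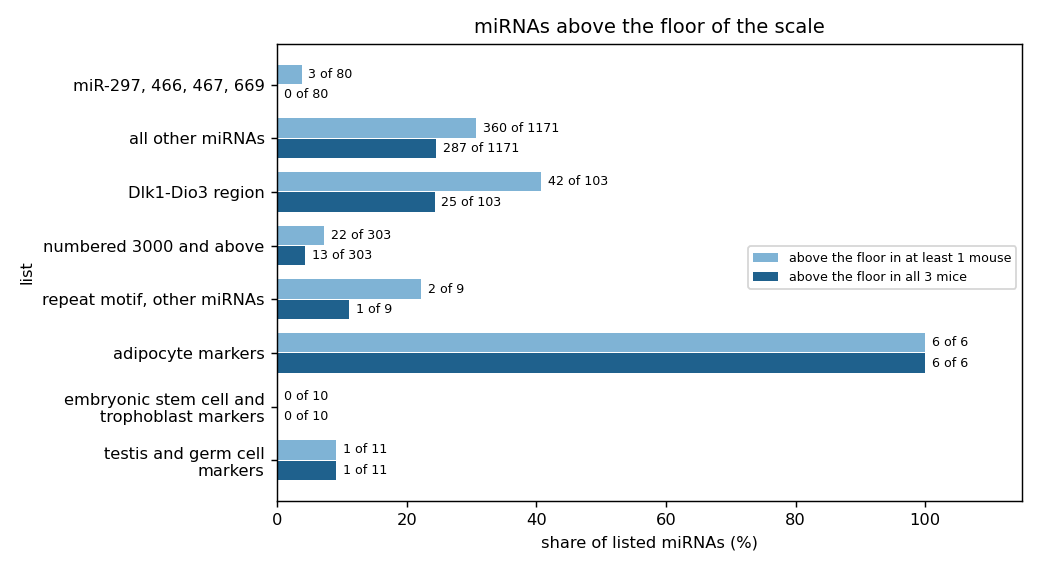
Share of listed miRNAs above the floor (horizontal axis, %) for the 4 families, other lists and marker lists (vertical axis), in at least 1 mouse (light bars) and in all 3 mice (dark bars), with counts printed at the bars. The families stand at 3 of 80 and 0 of 80, and Dlk1-Dio3 at 42 of 103 and 25 of 103.

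Markers of the cells known for the Sfmbt2 cluster were at the floor, where 29.0% of all rows were above it in at least 1 mouse. Whether a lack of such cells has a part in the floor values of the families was not tested. All 10 embryonic stem cell and trophoblast miRNAs with a row, among them miR-291a-3p, miR-294-3p and miR-302a-3p, held 3.32 in every mouse. Of the adipocyte-expressed miRNAs 6 of 6 were above the floor in all mice, as the tissue label has it, with a median of 14.94 log2 units. Of 11 testis and germ cell miRNAs, which were checked because the depot lies beside the epididymis, only miR-34c-5p was above the floor, at 7.83, 7.64 and 7.54 in mice 1, 3 and 9. Summed levels of the marker lists for other cell types differed between the mice, and these sums do not measure amounts of cells. Striated muscle markers (4 of 4 seen in at least 1 mouse) held 1626, 35709 and 27882 ppm in mice 1, 3 and 9. Most of that was miR-133a-3p, at 11.94, 16.38 and 16.02 log2 units, while miR-1a-3p held 3.32, 5.53 and 3.44. Epithelial markers (6 of 6) held 645, 1441 and 375 ppm, and blood markers (5 of 5) held 6174, 5000 and 5242 ppm. At the floor among these were miR-1a-3p in mouse 1, miR-206-3p in mice 1 and 9, miR-200a-3p, miR-200c-3p and miR-141-3p in mouse 9, miR-142-3p in mouse 3, and miR-144-3p in mice 3 and 9. Mouse 9, which held both miR-467 rows, had the lowest epithelial sum and the middle muscle and blood sums. It also held most of the rows of the whole table that were seen in 1 mouse only. Mouse 1, which held miR-669c-5p, had the lowest muscle sum, the middle epithelial sum and the highest blood sum. The part of other cells in the 3 values was not tested. In whole tissue, few cells with much of a miRNA and many cells with little of it cannot be told apart.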

How the data were processed

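Libraries followed Illumina's small RNA protocol, per the labels' protocols. The authors deposited 1 log2 value for each mature miRNA in each mouse. Per the series' design text the Gunaratne pipeline was used, and they mapped 13.8 M reads for each sample, approximately, to mm10 (also named per the submitters' processing notes), scaled counts to the usable reads and added a constant of 40. The values have a floor of 10 instead, with 260 values between 10 and 40, and sorted columns that differ by at most 0.34 at any rank. No source used here names the aligner, the annotation or the treatment of reads matching many places.

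Values were made linear as the power of 2 minus 10. Shares are of a mouse's summed linear values. Sorted columns were nearly alike, so a value largely reflects a row's rank in its mouse. Shares and normalized counts are therefore not fractions or numbers of reads. Values within 1e-06 counted as equal. Arm ratios were tested with limma 3.58.1 (R 4.3.3) across all hairpins past the filter, and the script was tested on simulated data. Descriptions used Python 3.11.15, pandas 2.3.3 and numpy 2.4.6, and figures matplotlib 3.10.9. Positions come from GENCODE M21, sequences from RefSeq. Rows were matched to hairpins by name, with Mir466 taken as miR-466a and Mir297-1 as a copy of miR-297a.

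The members and lists were chosen with earlier results of these data known. Named miRNAs are all members above the floor in at least 1 mouse with their partner arms, and non-members with a repeat motif seen in any mouse. miR-1187, miR-668-5p, miR-669a, miR-467b-3p and the rows sharing a value were named after values were seen. Of 13 embryonic stem cell and trophoblast names, 3 had no row. Alternatives were other detection limits, other constants, identical rows counted once, median-ratio scaling, other arm filters and leaving out each mouse.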

Additional observations from a re-analysis of the deposited data

How the results depend on the processing

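The count of 0 members above the floor in all 3 mice held at limits of 10 and of 100 normalized counts, with identical rows counted once, and without each mouse in turn (0 to 0). Asking for at least 1 mouse made it 3. That count of 3 became 2 at a limit of 10, 0 at a limit of 100 and 2 with identical rows counted once, and ranged from 1 to 3 without each mouse. The summed share of 4.17 ppm ranged from 0.868 to 6.25 without each mouse, and was 0 after subtracting 40 and 2.42 with identical rows counted once, where a member stands for its set of equal rows. Median-ratio scaling cannot change a share within a mouse. With nothing subtracted, each row at the floor adds 10, and shares became 335 ppm for all members, 24.8 for miR-297, 128 for miR-466, 57.3 for miR-467, 125 for miR-669, 137 for 5p arms and 148 for 3p arms. Without each mouse the share ranged from 0 to 5.39 for miR-467 and for 3p arms, and from 0 to 0.868 for miR-669 and for 5p arms. Levels on the log2 scale follow the constant added: miR-467a-3p and miR-467d-3p averaged 1.27 with a constant of 1 and 5.46 with 40, and miR-669c-5p 0.79 and 5.37. In the arm test only the setting with no filter could fit member hairpins, 3 of them through 1 mouse each, so the 0 that passed says nothing of their arms. The stated read number is an approximate one per sample and the counts behind each value are not given, so no limit is put on a level at the floor.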
